A study of Mus musculus with 10 samples.

Results

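The globin genes were followed through 2 readouts in mouse erythroid lines, newly made RNA and chromatin bound by the Krüppel-like factors KLF3 and KLF1. The RNA members are the rows whose gene name, split at commas, holds Hba-a1, Hba-a2, Hba-x, Hbb-b1, Hbb-b2, Hbb-y, Hbb-bh1 or Beta-s. These are 8 of the 9 names listed for the family, and 1 name is not analysed here. They fill 8 of 23309 rows, of which 6 were tested by the authors. The peak members lie within 50 kb of those rows or have one of the genes as their nearest start site, which gave 3 of 4579 KLF3 peaks and 8 of 3800 KLF1 peaks.

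J2E-KLF3-ER cells are J2E cells, an immortalised fetal liver erythroid line, that carry KLF3 fused to an estrogen receptor domain and so made inducible by tamoxifen. Clones A, C and E gave 1 RNA library each, and all 3 received 200 nM 4-hydroxytamoxifen. The 3 J2E libraries carried no transgene; the third is labelled as ethanol-treated and the other two as tamoxifen-treated. In both groups RNA was labelled with 500 µM 4-thiouridine (4sU) for 30 minutes, so the values weigh recent transcription more than stored message. KLF3 was immunoprecipitated from clone C with an estrogen receptor antibody, and KLF1 with a KLF1 antibody from clones A and C of the K1-ER line, erythroblasts that lack Klf1 and carry an inducible KLF1-ER fusion. Each chromatin library pooled 3 replicates after 3 hours of tamoxifen and was set against its own input. Which promoters drive the transgenes is not given in the sources used. Without J2E-KLF3-ER libraries free of tamoxifen, the clones, the fusion and its activation cannot be told apart.

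Haemoglobin is built from alpha-like and beta-like chains made from separate gene clusters. In the mouse alpha cluster on chromosome 11, Hba-x encodes the embryonic zeta chain and Hba-a1 and Hba-a2 encode the adult alpha chain. In the beta cluster on chromosome 7, Hbb-y and Hbb-bh1 are embryonic genes, and Beta-s and the Hbb-b genes are adult ones. Enhancers in introns of the neighbouring gene Nprl3 drive the alpha cluster, and a locus control region upstream of Hbb-y drives the beta cluster. KLF1 activates adult beta-globin through a CACCC box in its promoter, and KLF3, a repressor, recognises the same kind of sequence.

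Promoter sequences of 6 globin genes were taken from RefSeq on build GRCm38.p6, since no mm9 sequence was used. They show where the letters CACCC lie before each start, not whether a factor uses them. Beta-s is a synonym of Hbb-bs in RefSeq. Hbb-bt has no row of its own in the RNA table, but RefSeq places it next to Hbb-bs, where the RNA table has a row that joins Hbb-b1 with Hbb-b2. Each line gives the 150 bases before the annotated start, 5′ to 3′ on the gene's strand, with CACCC in capitals.
Hbb-bs, chr7:103827929-103828078, minus strand: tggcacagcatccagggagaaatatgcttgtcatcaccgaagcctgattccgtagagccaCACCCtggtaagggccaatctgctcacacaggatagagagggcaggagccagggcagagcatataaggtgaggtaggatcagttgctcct
Hbb-bt, chr7:103813924-103814073, minus strand: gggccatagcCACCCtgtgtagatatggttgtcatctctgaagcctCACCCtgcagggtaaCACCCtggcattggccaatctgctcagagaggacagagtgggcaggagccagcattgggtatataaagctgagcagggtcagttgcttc
Hbb-y, chr7:103853208-103853357, minus strand: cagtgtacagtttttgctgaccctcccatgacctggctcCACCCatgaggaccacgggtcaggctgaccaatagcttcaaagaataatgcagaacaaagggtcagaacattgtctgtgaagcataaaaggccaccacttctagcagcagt
Hba-a1, chr11:32283522-32283671, plus strand: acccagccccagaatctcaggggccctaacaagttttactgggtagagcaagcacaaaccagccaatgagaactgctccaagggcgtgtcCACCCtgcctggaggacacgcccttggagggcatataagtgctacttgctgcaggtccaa
Hba-a2, chr11:32296342-32296491, plus strand: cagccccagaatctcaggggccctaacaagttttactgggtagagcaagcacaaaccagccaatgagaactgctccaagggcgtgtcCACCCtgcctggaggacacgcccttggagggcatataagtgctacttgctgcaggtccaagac
Hba-x, chr11:32276450-32276599, plus strand: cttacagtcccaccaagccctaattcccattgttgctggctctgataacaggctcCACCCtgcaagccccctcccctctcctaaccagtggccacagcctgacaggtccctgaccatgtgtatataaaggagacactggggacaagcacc

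The CACCC letters were found in all 6 promoters, searched on both strands over 250 bases before the start, and in 52.0% of 32841 promoter windows of that length. The match nearest the start began 90 bases upstream in Hbb-bs, 89 in Hbb-bt, 111 in Hbb-y, 60 in Hba-a1, 63 in Hba-a2 and 95 in Hba-x. The longer CCACACCC, which contains CACCC, occurred only in Hbb-bs among the 6, and in 3.20% of all windows. CCNCNCCC occurred once each in Hbb-bs, where it is the same 8 bases, in Hbb-bt and in Hba-x, and in 45.9% of all windows. CCAAT was present in 5 of the 6 promoters, not in Hba-x, and in 33.9% of all windows. AGATAA was found in Hbb-bs alone among the 6 and in 9.99% of all windows. TATAAA was found in Hbb-bt and Hba-x and in 12.4% of all windows. The adult alpha promoters shared an identical run of 297 bases within their 300-base windows, so sequence there does not tell the copies apart. The longest identical run between Hbb-bs and Hbb-bt was 14 bases, with 71.3% identity over their alignment.

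The RNA comparison asked whether globin transcription differed once KLF3-ER was present. Of the 6 tested globin rows, 1 fell, none rose and 5 were not called at the authors' q below 0.05, where 2.72% of 9619 tested genes were called, 1.90% falling and 0.821% rising. The row that fell was Beta-s, an adult beta-globin gene on chromosome 7 at 110975036 to 110976442 (mm9). Each group has 1 pooled FPKM value (fragments corrected for transcript length and sequencing depth), so no spread between libraries can be set beside a level, and the depth of each library is unknown. As RNA came from whole cultures, fewer cells making a transcript and less transcript per cell cannot be told apart.

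Beta-s stood at 284 FPKM in J2E-KLF3-ER cells, against 453 FPKM in J2E cells, in the authors' deposited table. It had the highest level of the family in both groups and was the only row with a called change. Its log2 fold change was -0.67 in the authors' deposited table, with a p-value of 5e-05 and a q-value of 0.00408. That p-value is the smallest in the table and is shared by 118 genes. The level in J2E-KLF3-ER cells was 37.3% lower. Among the 183 falling genes, ordered from the largest fall, Beta-s came at place 162, and the median falling gene had a log2 fold change of -0.96. None of the 262 called genes had a higher FPKM than Beta-s in J2E cells, and 1 had a higher FPKM in J2E-KLF3-ER cells. Beta-s was also the only globin row at q below 0.10, which 4.56% of tested genes passed, and at an unadjusted p below 0.05, which 15.4% passed. No globin row was both called and changed at least 2-fold, as 1.15% of tested genes were. Of 326 tested genes at 100 FPKM or more in both groups, 3 fell (0.920%), Beta-s among them, and 4 rose (1.23%).

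The other adult beta rows lie at the same position, chromosome 7 at 110961037 to 110962437. The joined Hbb-b1 and Hbb-b2 row had 96.1 FPKM in J2E-KLF3-ER cells and 91.6 FPKM in J2E cells, a log2 fold change of 0.07 (q = 0.929), in the authors' deposited table. The Hbb-b2 row, with the same coordinates, had 0.00488 FPKM in J2E-KLF3-ER cells and 12.4 FPKM in J2E cells, a log2 fold change of -11.31 that was not called (q = 0.647), in the authors' deposited table. Since these rows share coordinates, how fragments were divided between them is uncertain. Their sum was 96.1 FPKM in J2E-KLF3-ER cells and 104 FPKM in J2E cells, a log2 ratio of -0.11 with no test. The fold change of the Hbb-b2 row alone therefore does not describe the locus.

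The adult alpha rows showed the same division. The Hba-a2 row, on chromosome 11 at 32196488 to 32197310, had 103 FPKM in J2E-KLF3-ER cells and 133 FPKM in J2E cells, a log2 fold change of -0.37 (q = 0.373), in the authors' deposited table. The row joining Hba-a1 and Hba-a2 has those same coordinates. It had 4.07 FPKM in J2E-KLF3-ER cells and 0.0208 FPKM in J2E cells, a log2 fold change of 7.62 that was not called (q = 0.664), in the authors' deposited table. The 2 rows summed to 107 FPKM in J2E-KLF3-ER cells and 133 FPKM in J2E cells, a log2 ratio of -0.32 with no test. Hba-a1 has no RNA row at its own position, so its output is not separated from that of Hba-a2.

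The embryonic genes were expressed unequally. Hba-x, the zeta-globin gene at 32176599 to 32178115 on chromosome 11, had 42.5 FPKM in J2E-KLF3-ER cells and 42.9 FPKM in J2E cells, a log2 fold change of -0.01 (q = 0.989), in the authors' deposited table. Its levels differed by less than those of any other member. Hbb-y and Hbb-bh1, the embryonic beta-like genes, were near the bottom of the family and were not tested by the authors. Hbb-y had 1.23 FPKM in J2E-KLF3-ER cells and 2.32 FPKM in J2E cells, and Hbb-bh1 had 1.41 FPKM in J2E-KLF3-ER cells and 0.302 FPKM in J2E cells, in the authors' deposited table. The Hbb-y level was the lower and the Hbb-bh1 level the higher in J2E-KLF3-ER cells, and their sum was 2.63 FPKM in J2E-KLF3-ER cells and 2.62 FPKM in J2E cells.

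**Figure D1:**
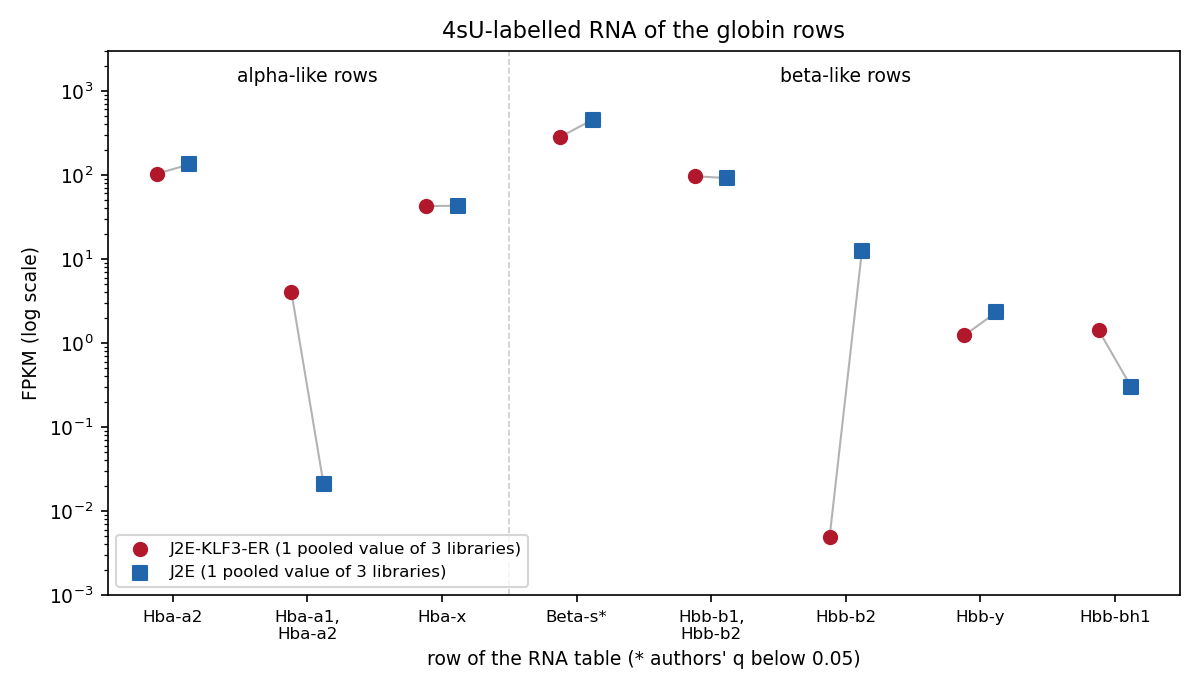
FPKM (log axis) of each globin row, 1 pooled value per group, with J2E-KLF3-ER as circles and J2E as squares; grey lines join the pair and no error can be drawn. Beta-s is the highest row in both groups, at 284 and 453 FPKM, and the wide gaps of the joined Hba row and of Hbb-b2 belong to rows that share coordinates with another row.

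Ordered by level in J2E-KLF3-ER cells, the rows ran from Beta-s through Hba-a2, the joined Hbb row, Hba-x, the joined Hba row, Hbb-bh1 and Hbb-y to Hbb-b2. In J2E cells the order was Beta-s, Hba-a2, the joined Hbb row, Hba-x, Hbb-b2, Hbb-y, Hbb-bh1 and the joined Hba row. The first 4 places were the same in both groups, and whether neighbours differ beyond their spread cannot be judged from pooled values. Beta-s ranked 104 of 23309 rows in J2E-KLF3-ER cells and 60 in J2E cells, and Hba-a2 ranked 390 in J2E-KLF3-ER cells and 289 in J2E cells. Globin rows were thus not the most abundant in labelled RNA of either group.

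Summed by family, adult beta rows came to 380 FPKM in J2E-KLF3-ER cells and 557 FPKM in J2E cells. Beta-s made up 74.2% of all beta-like FPKM in J2E-KLF3-ER cells and 81.0% in J2E cells. Adult beta exceeded adult alpha 3.56-fold in J2E-KLF3-ER cells and 4.19-fold in J2E cells. Hba-x contributed 28.4% of alpha-like FPKM in J2E-KLF3-ER cells and 24.4% in J2E cells, whereas Hbb-y and Hbb-bh1 together made 0.688% of beta-like FPKM in J2E-KLF3-ER cells and 0.468% in J2E cells. In these rows, embryonic output was therefore a larger share of the alpha-like than of the beta-like cluster in both groups. The adult alpha sum holds only rows at the Hba-a2 position, as Hba-a1 has none at its own. It may be incomplete, and with it the beta to alpha ratio and the Hba-x share. These sums and shares carry no test.

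The median log2 fold change of the 6 tested globin rows was -0.19, beside 0.03 over all 9619 tested genes. It was -0.30 when each row was centred on its chromosome's median, and -0.21 with rows at one position summed. Over the single-gene rows alone it was -0.52, but that set keeps the Hbb-b2 row (-11.31), which does not describe its locus. Over tested genes, the median log2 fold change was 0.00 on chromosome 7 and 0.10 on chromosome 11, a difference that was not tested. Set against the median of its own chromosome, Beta-s stayed at -0.67, while Hba-a2 moved to -0.47 and Hba-x to -0.12 on the log2 scale.

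**Figure D2:**
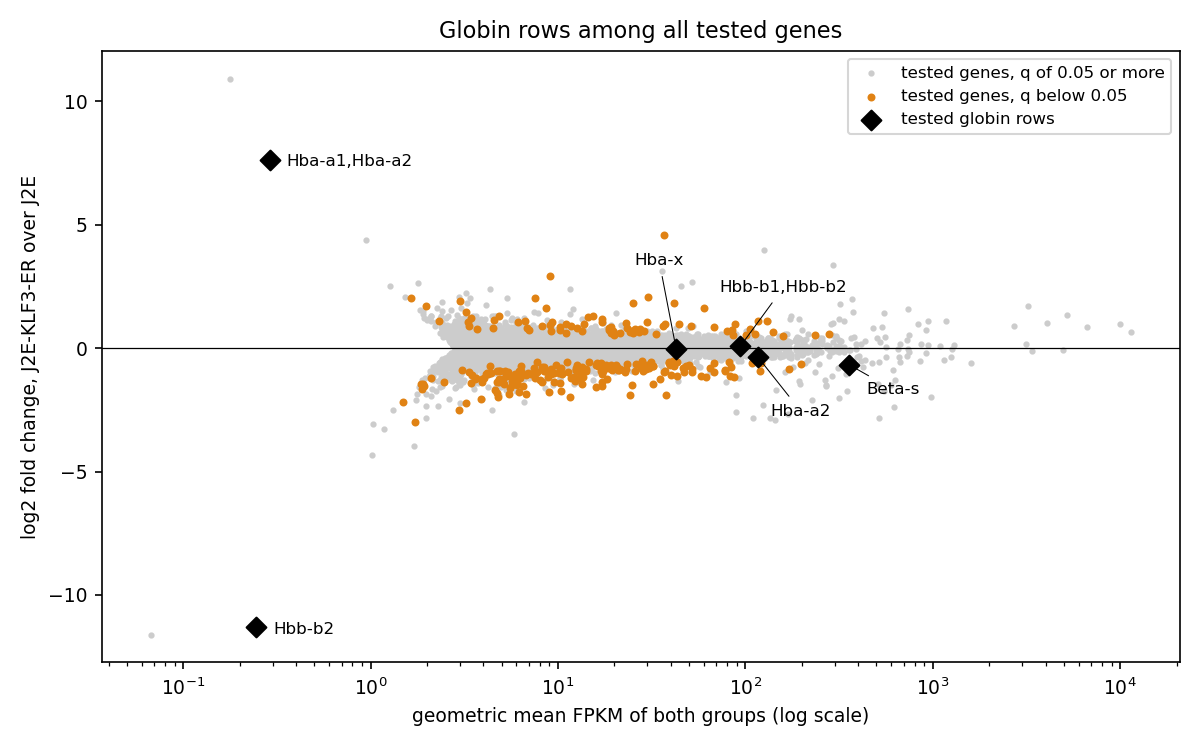
Deposited log2 fold change (J2E-KLF3-ER over J2E) against the geometric mean FPKM of both groups (log axis) for tested genes above 0 in both; orange points have q below 0.05 and black diamonds are the 6 tested globin rows. Beta-s, at -0.67, lies at the high end of the called genes, and the 2 diamonds far from 0 are the uncalled rows that share coordinates with another row.

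Of 10 further rows within 50 kb of a globin row, 3 were tested and none was called, beside 2.72% of all 9619 tested genes. So few tested rows cannot show whether the surroundings of the clusters changed. Nprl3, whose introns hold the alpha enhancers, had 18.9 FPKM in J2E-KLF3-ER cells and 20.9 FPKM in J2E cells (log2 fold change -0.15, q = 0.824), in the authors' deposited table. Mpg, a DNA glycosylase gene given the same coordinates as Nprl3, had a log2 fold change of 0.27 (q = 0.805), in the authors' deposited table. Hbq1b, a theta-globin gene, had 4.41 FPKM in J2E-KLF3-ER cells and 7.78 FPKM in J2E cells (log2 fold change -0.82, q = 0.404), in the authors' deposited table. The beta-like gene Hbb-bh2 was listed at 0 in both groups. The 5 olfactory receptor rows that flank the beta cluster reached at most 0.216 FPKM.

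Beside 1.90% falling and 0.821% rising among all 9619 tested genes, 1 of 12 activators of globin transcription, all tested, fell and none rose. This was Klf1, at 55.6 FPKM in J2E-KLF3-ER cells and 122 FPKM in J2E cells, a log2 fold change of -1.14 (q = 0.00408), in the authors' deposited table. The erythroid factors Gata1 (log2 fold change -0.28, q = 0.525) and Tal1 (-0.11, q = 0.815) were not called in the authors' deposited table. Of 16 repressors and switching factors, 13 were tested, 2 fell and 1 rose, to be read beside the same shares. The zinc finger repressors Zbtb7a and Gfi1b fell, with log2 fold changes of -0.94 and -0.78 (q = 0.00408 for both), in the authors' deposited table. The rising member was Klf3, at 180 FPKM in J2E-KLF3-ER cells and 7.46 FPKM in J2E cells in the authors' deposited table, a row in which the fusion and the resident gene are not separated. Bcl11a, a repressor of embryonic and fetal globin, was not tested; it had 0.566 FPKM in J2E-KLF3-ER cells and 2.25 FPKM in J2E cells in the authors' deposited table.

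Among all 9619 tested genes 1.90% fell and 0.821% rose. Of 9 genes of heme supply and of its coupling to globin synthesis, all tested, 1 fell and none rose. The falling gene was Alad, an early heme synthesis enzyme, with a log2 fold change of -1.42 (q = 0.00408), in the authors' deposited table. Alas2, the erythroid enzyme of the first step, had a log2 fold change of 0.58 (q = 0.262), and Eif2ak1, the heme-regulated kinase that limits globin translation, had 0.12 (q = 0.856), in the authors' deposited table.

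Of 10 listed erythroid markers 9 were found in the table, all at 1 FPKM or more in both groups, and 4 of them fell. These were the erythropoietin receptor gene Epor (-1.12), Slc4a1 (-0.91), which encodes a red cell anion exchanger, and Ermap (-0.86) and Kel (-0.66), which encode blood group antigens, given as log2 fold changes of the authors' deposited table. None of the other 5 was called. Among them Trim10, an erythroid TRIM family gene, had a log2 fold change of 0.60, Alas2 had 0.58 and Tfrc, the transferrin receptor gene, had -0.01, all in the authors' deposited table, with Gata1 as given above. Of all tested genes 1.90% fell, and the median log2 fold change of the 9 markers was -0.28. The FPKM of all 9 summed to 281 in J2E-KLF3-ER cells and 388 in J2E cells, with no test. The 4 called markers and Beta-s were lower in J2E-KLF3-ER cells, while Trim10 and Alas2 had higher values there; the part of these markers in the Beta-s value was not tested. Megakaryocyte markers summed to 176 FPKM in J2E-KLF3-ER cells and 157 FPKM in J2E cells, nearly all from Pf4 and Itga2b. Neither of the 2 tested megakaryocyte genes and none of 4 tested myeloid genes was called, and the myeloid sums were 30.7 FPKM in J2E-KLF3-ER cells and 38.1 FPKM in J2E cells. The 4 mast cell and 5 lymphoid markers were all below 1 FPKM in both groups, with Ptprc, Fcer1a and Mcpt8 at 0. Of 3 progenitor markers only Hhex exceeded that level.

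The binding data asked where KLF3 and KLF1 sat in the clusters. Each list was called from 1 pooled library, so peaks carry no replicate error, and the KLF3 and KLF1 lists also differ in cells and antibody. Enrichment is the authors' ratio for each peak and is compared only within a list. At the globin loci, 5 of the 8 KLF1 peaks were annotated as distal, 2 as promoter and 1 as intron; the KLF3 peaks were 1 distal, 1 promoter and 1 intron. Distal peaks made up 23.4% of the whole KLF1 list and 8.80% of the KLF3 list. No test of these shares was made.

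At the alpha cluster both factors met at the Hba-a2 start and in an Nprl3 intron. The KLF1 peak at Hba-a2 (chromosome 11, 32196224 to 32196603, mm9) had an enrichment of 20.6, rank 499 of 3800, with its summit 75 bases upstream of the start of the Hba-a2 row. The overlapping KLF3 peak (32196318 to 32196493) had an enrichment of 3.12 and was next to last in its list, rank 4578 of 4579. Its summit was 20 bases upstream of that start. The CACCC letters of this promoter, shown above, begin 63 bases upstream of the RefSeq start on the other build. The authors named the nearest start of both peaks Hba-a1, 76 bases from the KLF1 summit and 21 bases from the KLF3 summit. Their annotation thus places an Hba-a1 start beside the Hba-a2 row as well.

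The promoter at the other Hba-a1 start carried the highest KLF1 peak of the family, at 32183404 to 32183801, with an enrichment of 32.9 and rank 165. Its summit was 74 bases upstream of the start the authors used there. No KLF3 peak overlapped it, and the nearest KLF3 summit was 12796 bases from that start. Because the adult alpha promoters hold an identical run of 297 bases, how reads were placed between these copies bears on which copy a peak is listed at, and its part here was not tested.

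In the Nprl3 intron, a KLF1 peak at 32150869 to 32151201 had an enrichment of 15.3 (rank 910). The KLF3 peak within it, 32150952 to 32151175, had 12.7 (rank 877) and was the highest KLF3 peak at a globin locus. Their summits were 12 bases apart; the KLF3 summit lay 25543 bases upstream of the Hba-x start. A KLF1 peak 7411 bases upstream of Hba-x had an enrichment of 7.80 (rank 2583). The authors' nearest start site for it was that of Nprl3, 1574 bases away. Another KLF1 peak lay near Sh3pxd2b at the far edge of the window (7.50, rank 2696). No KLF3 peak overlapped either. Neither list had a peak within 1 kb of the Hba-x start, where the nearest KLF1 summit was 6999 bases away, at Hba-a1.

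**Figure D3:**
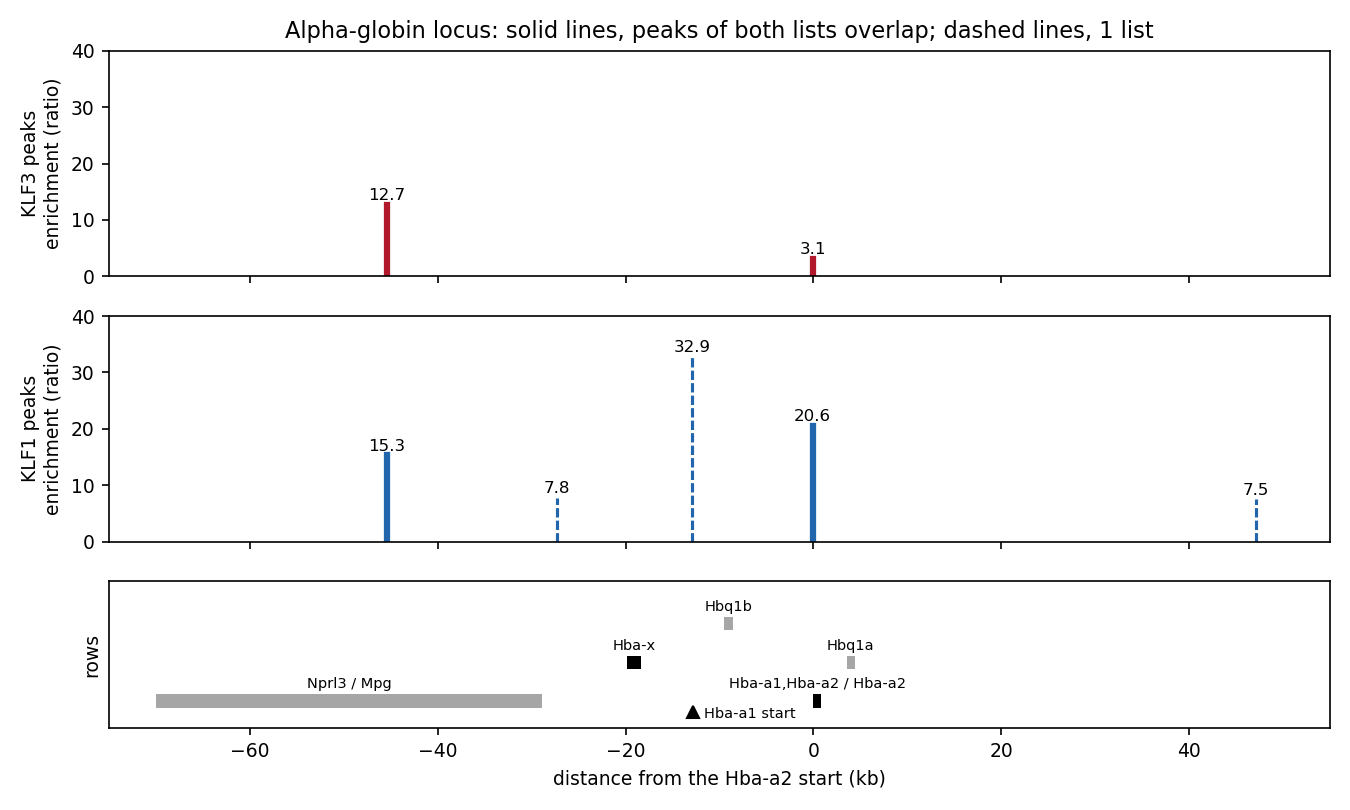
Peaks at the alpha-globin cluster, placed by distance in kb from the Hba-a2 start (negative values are upstream), with line height giving the authors' enrichment ratio; black boxes are globin rows and grey boxes neighbours. KLF3 has peaks at 12.7 in the Nprl3 intron and 3.12 at Hba-a2, each on a KLF1 peak, while the highest KLF1 peak, 32.9 at Hba-a1, has no KLF3 partner.

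At the beta cluster every peak lay upstream of Hbb-y, on the side of the locus control region. KLF1 had 3 peaks there. The first, at chromosome 7, 111007618 to 111007966, had an enrichment of 20.7 (rank 490) and a summit 6058 bases from the Hbb-y start. The next, at 111009513 to 111009839, had 19.9 (rank 537) and a summit 7957 bases away. It was overlapped by the single KLF3 peak of the cluster, at 111009481 to 111009760, with an enrichment of 8.81 (rank 1852) and a summit 50 bases from that of KLF1. The last KLF1 peak, at 111019219 to 111019552, had 13.0 (rank 1195) and lay 17671 bases from the Hbb-y start, although the authors' nearest start site was that of the olfactory receptor gene Olfr66.

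No peak of either list lay within 1 kb of a start of Beta-s or Hbb-y. From the Beta-s start, the nearest KLF1 summit was 31337 bases away and the nearest KLF3 summit 33186 bases, both upstream of Hbb-y. Beta-s, the only globin row with a called change, had no listed promoter peak, and its promoter holds CCACACCC. Hba-a2 was not called and had a promoter peak of both factors, with the KLF3 peak next to last in its list. The part of binding, at promoters or upstream of Hbb-y, in these RNA values was not tested. KLF1 binding was measured in K1-ER cells, for which no RNA is compared here.

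**Figure D4:**
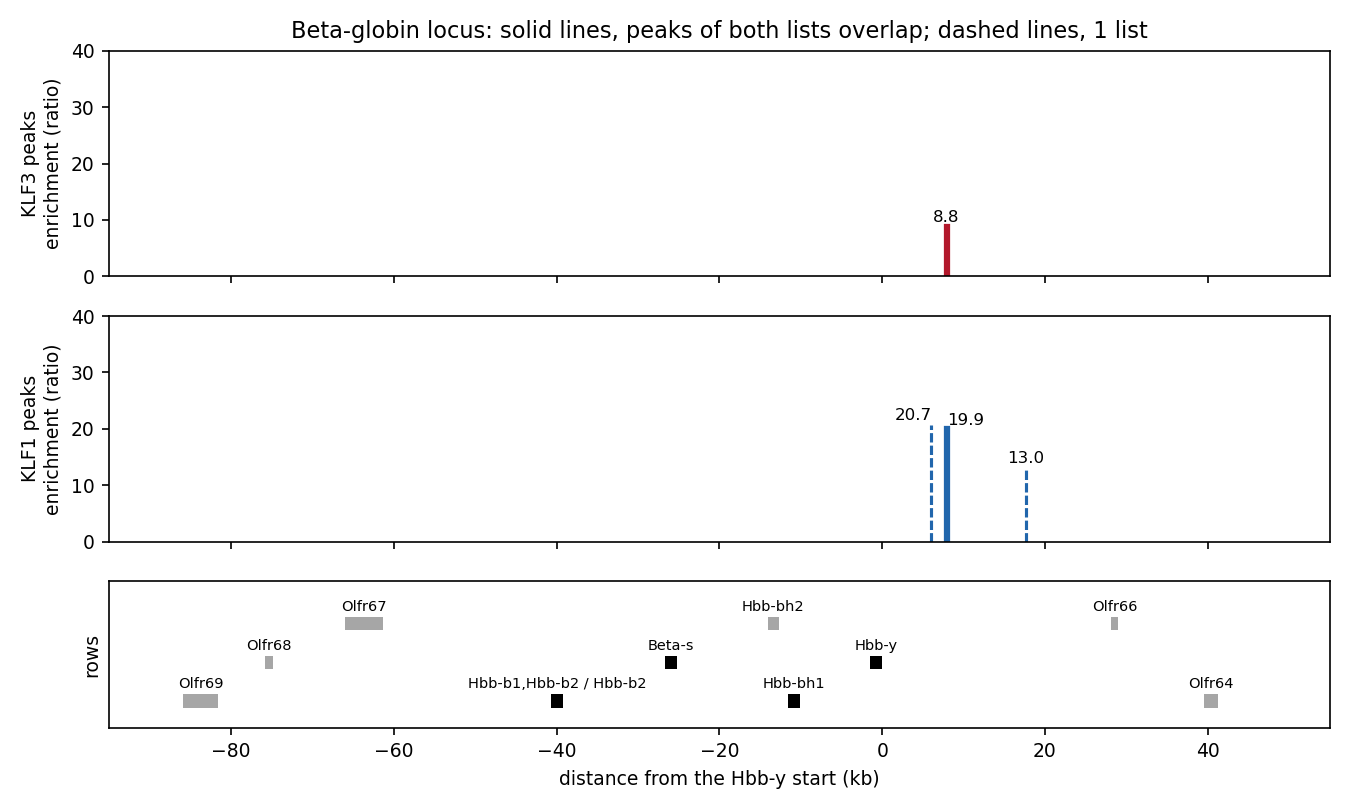
Peaks at the beta-globin cluster, placed by distance in kb from the Hbb-y start (positive values are upstream, as the gene lies on the minus strand), with line height giving the authors' enrichment ratio. All 3 KLF1 peaks and the KLF3 peak of 8.81 stand upstream of Hbb-y, and no peak stands over the Beta-s or Hbb-b rows.

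All 3 KLF3 peaks at globin loci overlapped a KLF1 peak, beside 34.0% of the whole KLF3 list. Promoter peaks made up 66.5% of that list and 33.3% of the KLF3 globin peaks, so the 2 sets differ in make-up. Of the 8 KLF1 peaks, 3 overlapped a KLF3 peak (37.5%), which is near the 39.3% of the whole KLF1 list. The globin peaks are all those listed at the chosen loci, from pooled libraries, and are not independent draws. No error can therefore be put on these shares, and no test was made. Summit gaps of the 3 shared sites were 12, 50 and 55 bases, against a median of 33 bases over 1769 overlapping pairs in all. The KLF1 globin peaks had a median enrichment of 17.6 and a range of 7.50 to 32.9, beside a median of 9.72 over the whole KLF1 list. The KLF3 globin peaks ran from 3.12 to 12.7, with a median of 8.81, beside 7.94 over the whole KLF3 list.

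**Figure D5:**
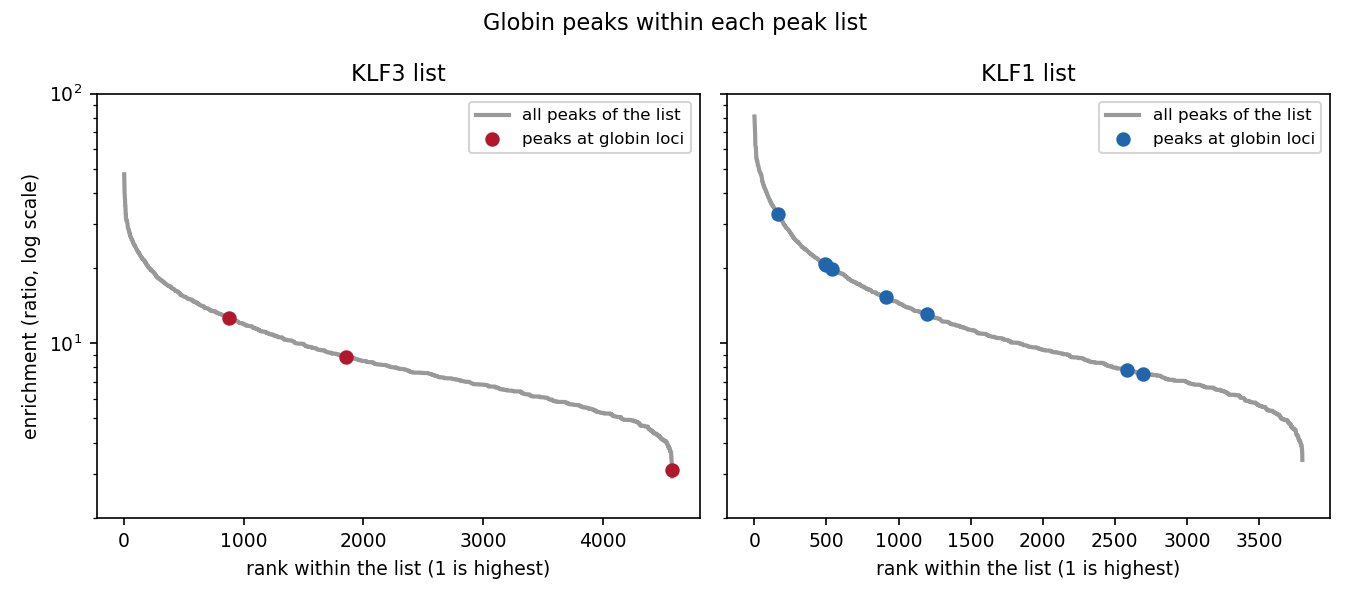
Enrichment ratio (log axis) against rank for all peaks of each list (grey line), with peaks at globin loci as points. The KLF1 globin peaks run from rank 165 to 2696 of 3800, and the KLF3 globin peaks stand at ranks 877, 1852 and 4578 of 4579.

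The window itself left few borderline peaks. The farthest KLF1 peak inside it was the one near Sh3pxd2b, 46.1 kb from a globin row. The nearest KLF1 peak outside lay 305 kb away on chromosome 11, at Fbxw11 with an enrichment of 7.46. On chromosome 7 the nearest KLF1 peak outside was 1247 kb away, at Trim21 with 7.76. For KLF3 the farthest inside was the Nprl3 intron peak at 25.4 kb, and the nearest outside were 345 kb (Fbxw11, 5.85) and 1247 kb (Trim21, 7.90) away.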

How the data were processed

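RNA libraries (3 J2E-KLF3-ER, 3 J2E) and chromatin libraries of KLF3 and KLF1 with inputs were compared through the authors' deposited tables. The submitters' processing notes name build mm9 and the tools TopHat2 2.0.10, MACS 1.4.2 and MACS2, without roles; what made the RNA test is not given in the sources used. Per the file headers, the RNA table holds FPKM as 1 value per group by the authors, log2 fold changes, a p-value and a q-value per gene, and a test statistic, a score that was not used. Per the file headers, peaks carry an enrichment ratio and a rank score. Benjamini-Hochberg adjustment of the deposited p-values matched the q-values over 9619 tested genes within 5.26e-07. The 93 blank rows were dropped. Per-sample columns left unused number 0. The spread behind the authors' p-values holds differences between clones A, C and E on the J2E-KLF3-ER side. On the J2E side it holds the ethanol treatment of the third library. As separate cultures are not stated for J2E, the rest of the J2E spread may be technical only.

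Rows were called at q below 0.05. Peaks overlapped by at least 1 bp. Named were all members, every tested gene within 50 kb, called genes of the lists of regulators, heme genes and markers, and a few chosen regulators; Trim10, Tfrc, Pf4, Itga2b, Ptprc, Fcer1a, Mcpt8 and Hhex were named after their values were seen. Members and lists were chosen with earlier results of these data known. Adjustment, overlaps and motif search were tested on simulated data. Calculations used Python 3.11.15, pandas 2.3.3, NumPy 2.4.6, SciPy 1.17.1, Biopython 1.88 and matplotlib 3.10.9.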

Additional observations from a re-analysis of the deposited data

How the results depend on the processing

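The single globin call, Beta-s, was still the only call at q below 0.10, at an unadjusted p below 0.05, among rows at 1 FPKM or more in both groups and among single-gene rows; requiring a 2-fold change left 0 globin rows called. The median log2 fold change of tested globin rows was -0.18 with a pseudocount of 10 FPKM and -0.22 centred on all tested genes. It was -0.30 centred on the chromosome. Over single-gene rows it was -0.52, a set that keeps the Hbb-b2 row at -11.31. With rows at one position summed it was -0.21, a choice made after seeing the data. It was unchanged to 2 decimals with pseudocounts of 0.1 and 1 and over all rows above 0 FPKM. Windows of 25 and 100 kb gave 6 and 8 KLF1 peaks and 2 and 3 KLF3 peaks. The 25 kb window left out the highest KLF3 globin peak, in the Nprl3 intron 25.4 kb from a globin row. With it went the KLF1 peak that it overlaps, and the KLF1 peak near Sh3pxd2b. Peaks at or above the median of their list numbered 6 for KLF1 and 2 for KLF3, and 2 shared sites remained, without the Hba-a2 site. No paired analysis was possible because the RNA table holds 1 pooled value per group, and for the same reason no replicate, the ethanol-treated J2E library included, could be left out. With no counts, depth sets an unknown limit on low rows such as Hbb-y and Hbb-bh1.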

Other observations

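The deposited peak tables also name, for each peak, the closest start site among genes that the authors listed as up or down in an RNA comparison. For all 5 KLF1 peaks at the alpha cluster the closest gene under the header for genes up between K1 and K1-ER cells was Hba-x, and for all 3 KLF1 peaks at the beta cluster it was Hbb-y. For the KLF3 peak upstream of Hbb-y, the closest gene under the header for falling KLF3 significant genes was Beta-s, 33186 bases away. The expression values behind the K1 and K1-ER columns are not analysed here.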
